A study of Mus musculus with 7 samples.

Results

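The 33 genes described here encode the transcription factor NRF2 (Nfe2l2), its inhibitor Keap1, and enzymes and transporters of the NRF2 target program and of glutathione metabolism. They were taken by symbol from the 33696 genes of the files, and all 33 were found. NRF2 is held in the cytoplasm by KEAP1, which sends it for degradation. When oxidants or electrophiles modify KEAP1, NRF2 is stabilised, enters the nucleus and binds antioxidant response elements near genes that make glutathione, supply NADPH, reduce peroxides and conjugate or export electrophiles. Because this control acts on the protein, the mRNA level of Nfe2l2 does not report NRF2 activity.

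Single-cell RNA-seq was performed on 7 subcutaneous allografts of the mouse cell line JW23.3, which models the malignant peripheral nerve sheath tumor (MPNST, a sarcoma of the Schwann cell lineage). The 4 irradiated tumors received 5 daily fractions of 2 Gy, with lead shielding of the rest of the body, and the 3 control tumors were not irradiated. All hosts were wild-type female C57/B6 mice, 5 to 6 weeks old at implantation, so every tumor came from 1 cell line in a host with an intact immune system. Mice were randomised on day 7 after implantation. Tumors were harvested on day 21, the only time sampled, and each gave 1 library. The comparisons below ask where in these tumors the NRF2 and glutathione genes were expressed, how they varied among tumor cells, and whether their levels differed after radiation.

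The libraries held 2859 to 8452 cells and 53496570 to 153044123 unique molecular identifiers (UMIs, each a captured transcript). Cells were assigned by marker genes, none of them among the 33, to 12148 tumor cells, 10780 macrophages, 1127 T or NK cells, 424 endothelial cells and 277 fibroblasts, and 7352 cells that passed quality filters met no gate. UMIs were summed over the cells of a gate in each tumor and are given as CPM, the share of that sum scaled to a fixed total. The MPNST marker list summed to 2.09% of its tumor cell level in macrophages, 2.89% in T/NK cells, 3.76% in endothelial cells and 10.7% in fibroblasts, and whether these counts came from tumor cells or from host expression of the markers was not tested. The tumor cells in turn held the fibroblast list at 23.2% of its level in fibroblasts. Technical sets were defined from the number of cells, their UMIs and genes, and the mitochondrial share, as the division into 2 sets with the least spread within sets. This division put irradiated 1, control 2 and control 3 against the other 4 libraries. It was only narrowly ahead of the next division (within-set share of the spread 0.489 against 0.544), and the mitochondrial share of the sets overlapped.

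Antioxidant response elements were looked for in the promoters because the list was built around NRF2 and its target genes. The core searched was TGACNNNGC on both strands, from 250 bases before to 50 bases after each start site of RefSeq (GRCm38.p6). Of the 33 members 27 had a window, and 11 of these 27 (40.7%) held the core, against 14.0% of the 27025 genes of the table. Counted by window, the shares were 31.6% of 38 and 12.4% of 32851. Since NRF2 targets were chosen for the list, a higher share than among all genes is not independent evidence about the members. The windows are shown for Nfe2l2, for each member with the core among the 2 of its role that differed most between tumor cells and macrophages, and for Gclm, a subunit of the enzyme that starts glutathione synthesis, with the core in capitals and 10 bases on each side, 5′ to 3′ on the strand that carries it.
Nfe2l2, chr2:75704885-75704913, minus strand: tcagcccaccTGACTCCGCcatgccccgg
Me1, chr9:86695902-86695930, minus strand: gatgccgccgTGACTCAGCgcttctcgcg
Prdx1, chr4:116685456-116685484, minus strand: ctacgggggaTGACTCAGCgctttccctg
Gclm, chr3:122245413-122245441, minus strand: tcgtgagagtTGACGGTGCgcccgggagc
Txnrd1, chr10:82859104-82859132, minus strand: cgtgtcagaaTGACAAAGCaaaaatccag
Mgst1, chr6:138140461-138140489, minus strand: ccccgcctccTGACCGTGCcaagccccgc
Abcc4, chr14:118706226-118706254, plus strand: cggcccgcccTGACCCCGCctctcggggc
The Me1 and Prdx1 windows held the same 9 bases. In the others the 3 free bases of the core differed. Srxn1, Pgd, Sod1 and G6pdx also held the core, and Abcc4 held it at a second start site. A match describes letters in a window, and no measurement of NRF2 binding was made here.

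Across cell types the members did not follow a single direction. Of 33 members, 29 passed the filter on low counts in the fit over all gates, and Nqo1, Gss, Gsta4 and Osgin1 did not. Relative to macrophages, 10 members were higher in tumor cells and 16 were lower, with a median log2 fold change of -0.51 over the 29 (all genes tested, 0.00). This count has to be read against a background in which 82.6% of 10593 genes passed the same test (edgeR quasi-likelihood test with Benjamini-Hochberg adjustment, threshold 0.05), 41.4% higher and 41.2% lower in tumor cells. Relative to T/NK cells 12 were higher and 6 lower (75.9% of all genes passed, 41.4% higher and 34.5% lower), and relative to endothelial cells 8 were higher and 13 lower (63.2%, 33.2% and 30%). Relative to fibroblasts 14 were higher and 8 lower (51.8%, 27.5% and 24.3%). In macrophages 18 members were higher than in T/NK cells and 4 were lower (66%, 36.3% and 29.6%). Fitted fold changes use a scaling that differs from CPM: over the members, the fitted tumor to macrophage value minus the log2 ratio of mean CPM had a median of -0.31, and the macrophage to T/NK value a median of 0.27, while the other cell type comparisons lay within 0.06 of 0.

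**Figure D1:**
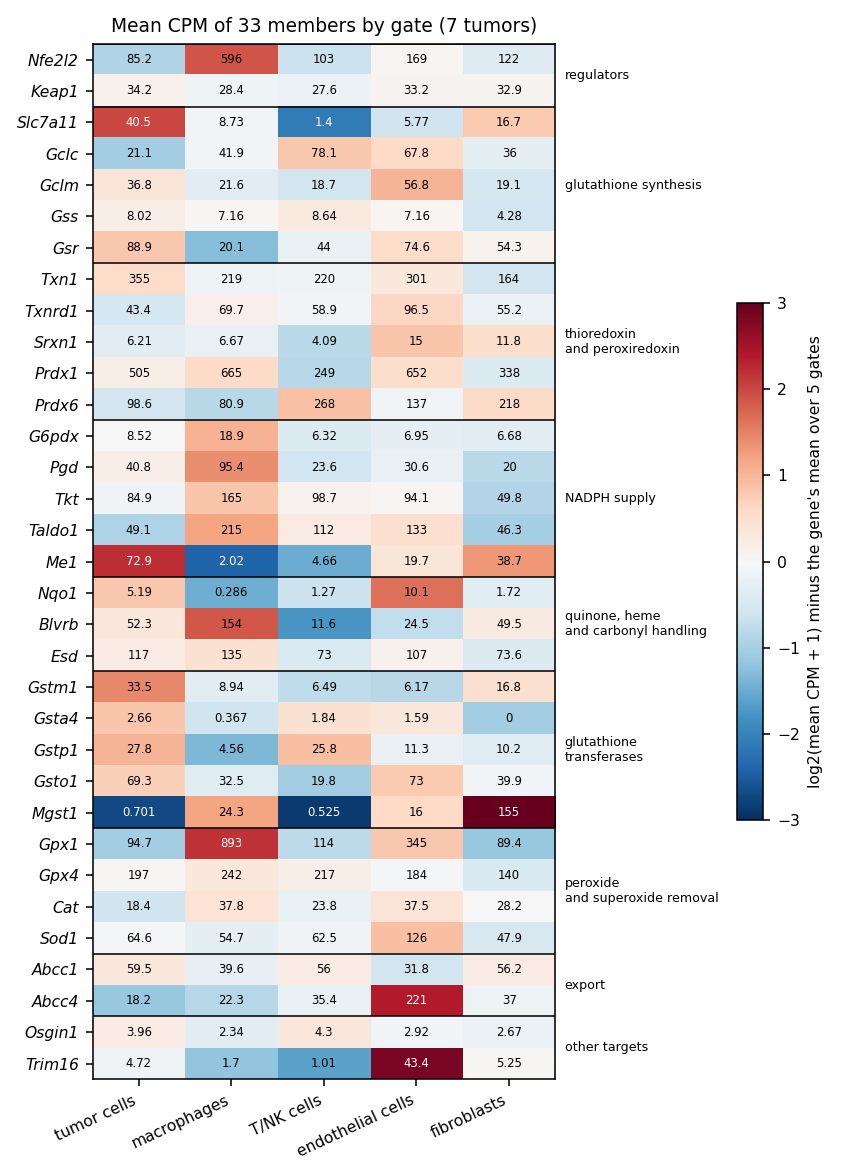
Mean CPM over the 7 tumors of the 33 members (rows, grouped by role) in the 5 gates (columns), printed in each cell. Colour gives log2(mean CPM + 1) minus the gene's mean over the gates, and ends at 3 in either direction. Within a role the members peak in different gates, such as Slc7a11 in tumor cells and Gclc in T/NK cells among the genes of glutathione synthesis.

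The regulators differed from each other in their pattern. Nfe2l2 was highest in macrophages, where the 7 tumors gave a lowest, median and highest level of 511, 599.9 and 631 CPM. In tumor cells the same 3 values were 66.6, 86.8 and 108 CPM, and every tumor was below every macrophage value. The fitted difference, tumor cells over macrophages, was -3.12 ± 0.15 on the log2 scale (SE, 7 tumors, adjusted p = 2.4e-18). Median Nfe2l2 levels in the other gates were 159 CPM in endothelial cells, 106 in fibroblasts and 99.3 in T/NK cells. Tumor cells were lower than endothelial cells (log2 fold change -0.87 ± 0.15) and fibroblasts (-0.55 ± 0.16, a call lost at -0.37 with no count filter), and the difference from T/NK cells did not pass the test (-0.31 ± 0.15, adjusted p = 0.068).

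Keap1, the adaptor that targets NRF2 for degradation, had overlapping levels in all 5 gates. Its lowest, median and highest levels were 31.1, 35.2 and 36.5 CPM in tumor cells and 21.7, 28.9 and 36.5 CPM in macrophages. Tumor cells exceeded macrophages in 5 of 7 tumors on the CPM scale, but the fitted log2 fold change was -0.01 ± 0.12 with a 95% interval from -0.26 to 0.25. None of the other cell type comparisons of Keap1 passed the test.

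**Figure D2:**
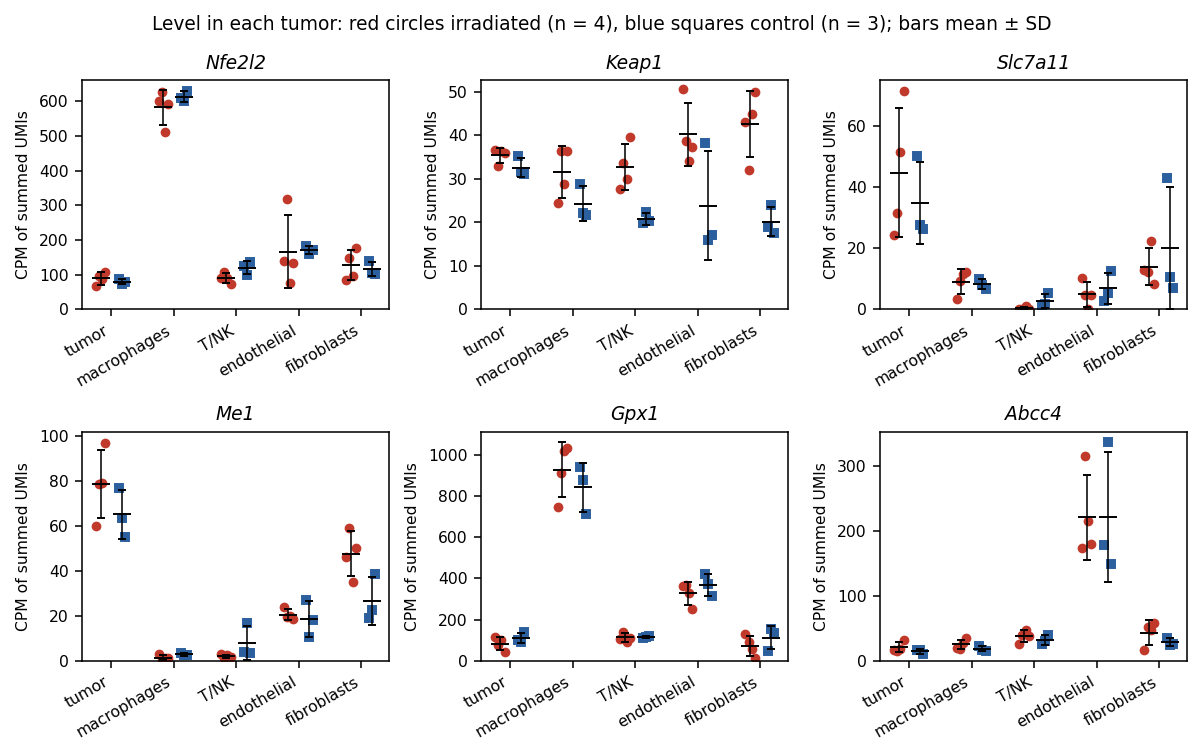
CPM of summed UMIs (linear axis from 0) in each tumor for Nfe2l2, Keap1, Slc7a11, Me1, Gpx1 and Abcc4, by gate; red circles are the 4 irradiated tumors, blue squares the 3 controls, and black bars the mean and SD of each group. Nfe2l2 and Gpx1 stand highest in macrophages, Slc7a11 and Me1 in tumor cells and Abcc4 in endothelial cells, and Keap1 overlaps between gates.

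Among genes of glutathione synthesis and recycling, Gclc differed from macrophages in the opposite direction to Slc7a11, Gsr and Gclm. Slc7a11, the cystine and glutamate exchanger, had a lowest, median and highest level of 24.3, 31.7 and 71.5 CPM in tumor cells and 3.36, 9.16 and 12.1 CPM in macrophages, without overlap. It was higher in tumor cells than in macrophages (1.88 ± 0.21 on the log2 scale, adjusted p = 9.8e-10), endothelial cells (2.49 ± 0.36) and fibroblasts (1.22 ± 0.32). T/NK cells had a median of 1.20 CPM. Gsr, which regenerates reduced glutathione with NADPH, reached 56.1, 83.1 and 143 CPM in tumor cells against 13.3, 19.95 and 28.6 CPM in macrophages, also without overlap (log2 fold change 1.82 ± 0.16, adjusted p = 6.3e-12). Gclc, the catalytic subunit of glutamate-cysteine ligase, went the other way: tumor cells were lower than macrophages (-1.30 ± 0.17), T/NK cells (-1.88 ± 0.19), endothelial cells (-1.56 ± 0.20) and fibroblasts (-0.80 ± 0.23). Gclm, the modifier subunit of the same ligase, was higher in tumor cells than in macrophages (0.47 ± 0.10), T/NK cells (0.95 ± 0.13) and fibroblasts (0.89 ± 0.15) and lower than in endothelial cells (-0.58 ± 0.12). With stricter gates the Gclm calls were lost against macrophages (0.54, adjusted p = 0.058) and endothelial cells (-0.39, adjusted p = 0.28). Gss, glutathione synthetase, was under the filter, with a median of 8.24 CPM in tumor cells and 6.85 CPM in macrophages.

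Of the 5 thioredoxin and peroxiredoxin genes, Txnrd1 was lower in tumor cells than in macrophages and endothelial cells under every alternative run. Txnrd1, thioredoxin reductase, had a lowest, median and highest level of 37.1, 41.7 and 52.8 CPM in tumor cells and 56.6, 72.1 and 73.9 CPM in macrophages, without overlap (log2 fold change -0.99 ± 0.11, adjusted p = 3.2e-10). Prdx1, a peroxiredoxin, ranged from 294 to 710 CPM in tumor cells (median 472) and from 606 to 754 CPM in macrophages (median 653), and was lower in tumor cells in each of the 7 tumors (-0.75 ± 0.15, adjusted p = 3.1e-05). Prdx6, a peroxiredoxin that uses glutathione, was highest in T/NK cells, with a median of 269.8 CPM against 88.6 in tumor cells (-1.48 ± 0.20) and 80.0 in macrophages. Txn1, thioredoxin itself, was higher in tumor cells than in fibroblasts (1.04 ± 0.13), T/NK cells (0.65 ± 0.12) and macrophages (0.37 ± 0.12). Srxn1, sulfiredoxin, which repairs overoxidised peroxiredoxins, was lower in tumor cells than in fibroblasts (-1.03 ± 0.29) and endothelial cells (-1.17 ± 0.26, a call lost at -1.18 with stricter gates). Against macrophages Srxn1 was lower by the test (-0.40 ± 0.17, adjusted p = 0.035), but the call was lost without irradiated 2, 3 or 4 or control 1 or 2 (-0.42 to -0.29), and the value was 0.01 with no cell filter. The Prdx1 call against endothelial cells (-0.35 ± 0.15) was also lost without irradiated 2, 3 or 4 or control 1 (-0.35 to -0.18).

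Relative to macrophages, genes that supply NADPH were split between Me1 and the pentose phosphate enzymes. Me1, malic enzyme, had a lowest, median and highest level of 55.2, 77.0 and 97.2 CPM in tumor cells and 0.491, 2.37 and 3.47 CPM in macrophages (log2 fold change 4.87 ± 0.27, adjusted p = 1.6e-16). It was also higher in tumor cells than in T/NK cells (4.15 ± 0.39), endothelial cells (1.96 ± 0.31) and fibroblasts (0.87 ± 0.28, a call lost at 0.75 with DESeq2). Taldo1, transaldolase, ran in the opposite direction, with 31.5, 49.7 and 67.7 CPM in tumor cells against 190.1, 221 and 239.5 CPM in macrophages (-2.46 ± 0.14, adjusted p = 1.5e-16). All 4 pentose phosphate genes were lower in tumor cells than in macrophages. For Pgd the log2 fold change was -1.54 ± 0.13, for G6pdx -1.47 ± 0.16 and for Tkt -1.26 ± 0.12. Against fibroblasts, Pgd (0.91 ± 0.20) and Tkt (0.70 ± 0.15) were higher in tumor cells. Of the 5 NADPH genes, 2 were higher and 1 lower in tumor cells than in T/NK cells. The same counts held against endothelial cells, where the Pgd call was lost with a tumor left out.

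Among the genes of quinone, heme and carbonyl handling, Blvrb and Esd were measured above the filter. Blvrb, biliverdin reductase B, had 39.9, 53.0 and 60.5 CPM (lowest, median, highest) in tumor cells and 134, 147 and 176 CPM in macrophages, without overlap (log2 fold change -1.87 ± 0.15, adjusted p = 2.3e-13), while T/NK cells had a median of 8.69 CPM. Esd, esterase D, which completes the glutathione-dependent detoxification of formaldehyde, ranged from 94.9 to 129 CPM in tumor cells (median 125) and from 109.99 to 172 CPM in macrophages (median 139), and the ranges overlapped (-0.51 ± 0.11, adjusted p = 1.1e-04, and -0.10 with no call when cells were not filtered). Nqo1, the quinone reductase often used as an NRF2 reporter, did not pass the filter: it had a median of 5.32 CPM in tumor cells, 0.245 in macrophages and 9.69 in endothelial cells. With no filter on low counts its tumor to macrophage log2 fold change was 3.77, and tumor cells were higher in all 7 tumors.

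The glutathione transferases included the member with the largest difference between tumor cells and a host gate. Mgst1, a membrane-bound transferase, had a lowest, median and highest level of 86.5, 172 and 227 CPM in fibroblasts, 18.99, 26.2 and 29.1 CPM in macrophages, and 0.237, 0.707 and 1.39 CPM in tumor cells. These ranges did not overlap, and the log2 fold change of tumor cells was -7.84 ± 0.26 against fibroblasts (adjusted p = 1.3e-21) and -5.43 ± 0.23 against macrophages (adjusted p = 7.8e-20). Gstm1, a cytosolic transferase, was higher in tumor cells than in macrophages (1.59 ± 0.18), T/NK cells (2.35 ± 0.30), endothelial cells (2.56 ± 0.33) and fibroblasts (0.93 ± 0.27). Gsto1, an omega-class transferase, was higher in tumor cells than in macrophages (0.80 ± 0.14), T/NK cells (1.78 ± 0.19) and fibroblasts (0.75 ± 0.18). Gsta4, an alpha-class transferase for lipid aldehydes, stayed under the filter, at 1.62 to 3.70 CPM in tumor cells. It had no UMI in fibroblasts in any of the 7 tumors, which over all 7 tumors allows a level of up to 0.882 CPM (3 UMIs of the 3400102 summed, counting error only).

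Gstp1, the pi-class transferase, varied more between tumors than between gates. In tumor cells the irradiated tumors 1 to 4 gave 27.9, 13.7, 36.6 and 9.94 CPM and the controls 1 to 3 gave 87.4, 6.61 and 12.7 CPM, a 13.2-fold range. The extremes were both control tumors, and the irradiated tumors lay between them. Over all cells of a library, control 1 also had the most median UMIs per cell (17930.5) and control 2 the fewest (6058.5). In the tumor cell gate irradiated 2 was slightly deeper than control 1 (28535 against 28387.5), and control 2 was again lowest (11946). The part of depth in the Gstp1 range was not tested. The range was 9.18-fold in macrophages, 17.9-fold in T/NK cells and 12.2-fold in endothelial cells, and in these gates too control 1 was highest and control 2 lowest. In fibroblasts irradiated 1 was highest and irradiated 4 had no UMI. Within tumors, Gstp1 was higher in tumor cells than in macrophages in 7 of 7 (log2 fold change 2.19 ± 0.18, adjusted p = 7.0e-13). Of the 50-base stretches in the last 500 transcript bases of Gstp1, 75.2% also occur in transcripts of other genes, most often Gstp2. Reads between these genes are therefore uncertain, and Gstp2 itself had at most 1.17 CPM in tumor cells. The MPNST marker list was above 0 in the host gates, as given above, and the part of tumor transcripts in this shared order was not tested.

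**Figure D3:**
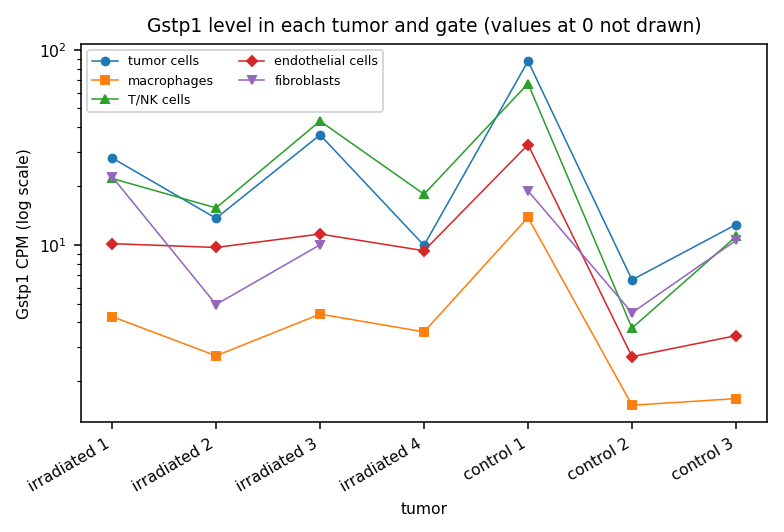
Gstp1 level in CPM (log axis) in each of the 7 tumors, with a line and symbol for each gate; lines join tumors only to guide the eye and values at 0 are not drawn. Control 1 is highest and control 2 lowest in tumor cells, macrophages, T/NK cells and endothelial cells.

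The genes that remove peroxide and superoxide each had their highest mean level in a host gate, but not every host gate exceeded tumor cells. Gpx1, a cytosolic glutathione peroxidase, had a lowest, median and highest level of 712, 912 and 1033 CPM in macrophages, 249, 362 and 419.6 CPM in endothelial cells and 44.2, 98.7 and 138 CPM in tumor cells. These 3 ranges did not overlap (tumor cells over macrophages, log2 fold change -3.62 ± 0.25, adjusted p = 3.4e-14). Cat, catalase, had 15.2, 18.7 and 20.3 CPM in tumor cells against 30.5, 39.0 and 44.0 CPM in macrophages (-1.33 ± 0.11, adjusted p = 2.7e-12). Gpx4, which reduces lipid hydroperoxides, was lower in tumor cells than in macrophages (-0.60 ± 0.13). However, 88.9% of its 50-base stretches also occur in transcripts of other genes, most often Gpx4-ps2. Sod1, superoxide dismutase, was lower in tumor cells than in endothelial cells (-0.87 ± 0.13). Of its stretches, 30.2% also occur in transcripts of other genes, most often Gm8566. Against fibroblasts, Gpx4 (mean 197 against 140 CPM) and Sod1 (64.6 against 47.9 CPM) were higher in tumor cells. Both of these calls were lost with a tumor left out.

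Among the exporters and remaining targets, Abcc4 and Trim16 were highest in endothelial cells, and Abcc1 was lower there than in tumor cells. Abcc4, an exporter of organic anions and glutathione conjugates, had a lowest, median and highest level of 149, 179.5 and 336 CPM in endothelial cells and 10.7, 16.9 and 32.0 CPM in tumor cells, without overlap (log2 fold change of tumor cells -3.59 ± 0.18, adjusted p = 2.4e-17). Against macrophages, with 15.7, 19.2 and 34.5 CPM, the difference was -0.62 ± 0.16 (adjusted p = 9.8e-04) and the ranges overlapped. Abcc1, a related exporter, ranged from 50.4 to 68.8 CPM in tumor cells (median 58.3) and from 32.5 to 52.1 CPM in macrophages (median 37.1). It was higher in tumor cells than in macrophages in 7 of 7 tumors (0.30 ± 0.13, adjusted p = 0.033), and the call was lost without irradiated 1 (0.26) or control 2 (0.26) and with stricter gates (0.01). Abcc1 was also higher in tumor cells than in endothelial cells (0.97 ± 0.17). Trim16, a ubiquitin ligase of the stress response, had 14.5, 46.8 and 55.9 CPM in endothelial cells, 3.34, 3.97 and 8.02 CPM in tumor cells and 1.18, 1.76 and 2.25 CPM in macrophages. Its log2 fold change was -3.23 ± 0.27 for tumor cells against endothelial cells (adjusted p = 3.5e-12) and 1.12 ± 0.25 against macrophages (adjusted p = 1.4e-04, and 1.28 with no call under stricter gates). Osgin1, an oxidative stress growth inhibitor under the filter, had a median of 3.75 CPM in tumor cells.

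A further 65 genes of the pathway, listed with earlier results of these data known, also moved in both directions. Of 53 tested, 14 were higher and 32 lower in tumor cells than in macrophages (41.4% and 41.2% of all genes), and 24 were higher and 14 lower than in T/NK cells (41.4% and 34.5%). Relative to endothelial cells 12 were higher and 20 lower (33.2% and 30% of all genes). Relative to fibroblasts 11 were higher and 18 lower (27.5% and 24.3%). The most different was Abcc3, an organic anion exporter, at -7.09 ± 0.22 for tumor cells over macrophages (log2 fold change, adjusted p = 8.1e-24). Gpx8, a peroxidase of the endoplasmic reticulum, was higher in tumor cells by 5.10 on the same scale. Hmox1, heme oxygenase, was higher in macrophages than in T/NK cells by 5.20.

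Among tumor cells the members differed between states. Cells were split within each tumor by the mean log-normalised level of 14 hypoxia genes (the top 25% of cells, 3040 in all) and by detection of at least 3 of 8 cell cycle genes (1796 cycling cells). Both are ranges of a score. The 1214 cells within 5% of the rank of the hypoxia cut follow from the ranking itself, and 354 cells were at exactly 3 cycling genes. Depth moved with both states: median UMIs per cell were 14392 to 31532.5 in hypoxia-high cells against 11230 to 27309 in the others, and 16538.5 to 41559 in cycling cells against 11624 to 27269.5. The part of depth in these results was not tested.

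In hypoxia-high cells 14 of 33 members were higher and 2 lower, where 31.3% of 14383 genes passed, 17.7% higher and 13.6% lower. The member median was 0.14 on the log2 scale. Me1 rose most: the irradiated tumors 1 to 4 had 72.3, 126, 108 and 159 CPM in hypoxia-high cells and 54.9, 60.8, 68.2 and 75.7 CPM in the others. The controls 1 to 3 had 114, 87.7 and 65.0 CPM against 62.8, 53.7 and 51.3 CPM. Me1 was higher in hypoxia-high cells within each of the 7 tumors, irradiated or not, with a log2 fold change of 0.78 ± 0.09 (adjusted p = 1.4e-04). Prdx6 (0.45 ± 0.04), Esd (0.38 ± 0.04), Txn1 (0.36 ± 0.04) and Pgd (0.34 ± 0.05) rose less. Keap1 rose by 0.23 ± 0.05 in 7 of 7 tumors, and Nfe2l2 gave 0.00 ± 0.07 (95% interval -0.16 to 0.16). None of the 5 genes of glutathione synthesis passed the test. Abcc4 (-0.26 ± 0.08) and Osgin1 (-0.37 ± 0.13) fell. The Abcc4 call was lost without irradiated 1 (-0.19) or control 1 (-0.24), and the Osgin1 call without irradiated 2, irradiated 4 or any of the controls (-0.39 to -0.31). Among the higher members, the calls of Cat, Gpx4, Gstp1 and Gsto1 were also lost with a tumor left out. Those of Prdx1, Gpx1 and Tkt were lost in other alternatives. Of the 16 calls, 7 were kept in every alternative run. With hypoxia-high cells defined as the top 10%, 7 of 32 members passed, where 16.7% of 13538 genes did.

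In cycling cells 19 of 32 members tested were higher and 3 lower, where 70.8% of 14106 genes passed, 35.4% higher and 35.4% lower. The member median was 0.36. All 5 thioredoxin and peroxiredoxin genes rose. Txn1 had 649 to 829.9 CPM in cycling cells and 230.4 to 367 CPM in the others, without overlap (log2 fold change 1.49 ± 0.05, adjusted p = 7.1e-12). Prdx6 rose by 1.08 ± 0.05, Srxn1 by 0.90 ± 0.14, Txnrd1 by 0.62 ± 0.06 and Prdx1 by 0.53 ± 0.05. Both subunits of glutamate-cysteine ligase rose, Gclc by 1.10 ± 0.13 and Gclm by 0.65 ± 0.07, each in 7 of 7 tumors. Slc7a11 (-0.40 ± 0.16), Gstm1 (-0.40 ± 0.09) and Osgin1 (-0.65 ± 0.19) fell. The Slc7a11 call was lost without irradiated 2, 3 or 4 or control 1 or 2 (-0.39 to -0.32). Nfe2l2 (-0.05 ± 0.06) and Keap1 (0.04 ± 0.05) did not pass the test.

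**Figure D4:**
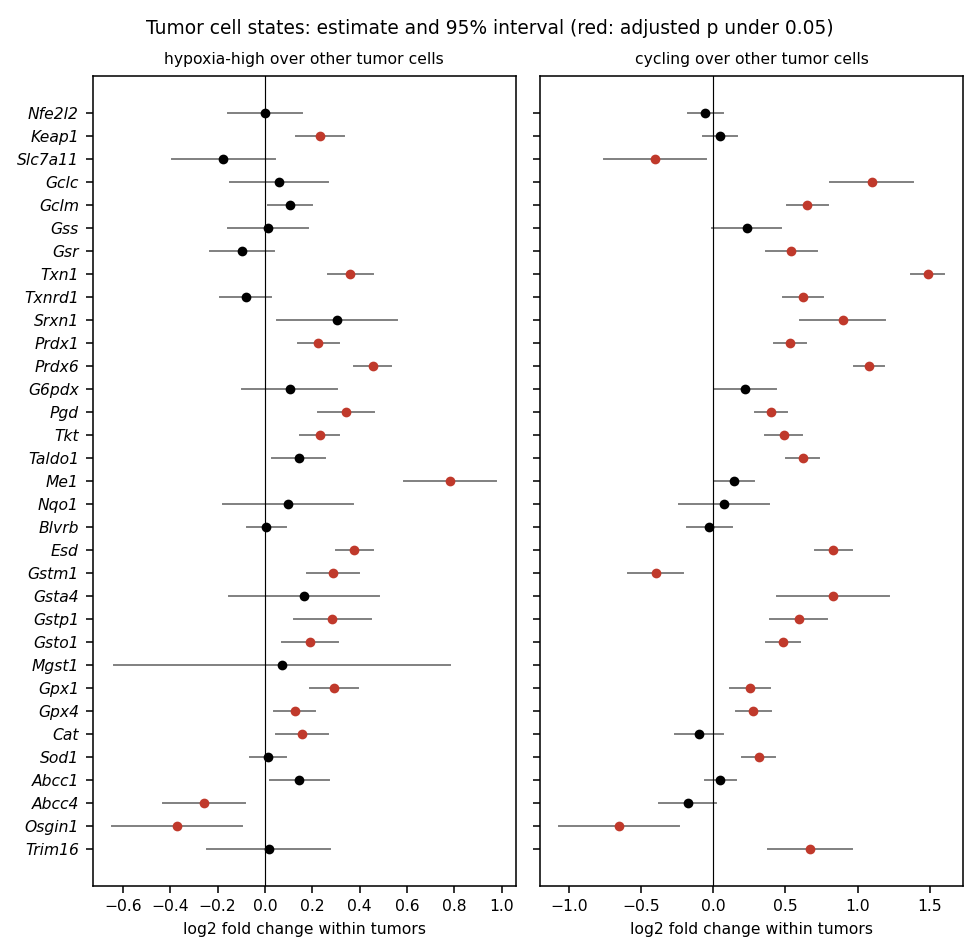
Log2 fold change with 95% interval of each member in hypoxia-high over other tumor cells (left) and cycling over other tumor cells (right), fitted within the 7 tumors; red points have an adjusted p under 0.05. Me1 is farthest right at 0.78 in the left panel and Txn1 at 1.49 in the right panel, and Nfe2l2 lies near 0 in both.

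Irradiated and control tumors did not differ in any member at the adjusted threshold. Of 33 members tested in tumor cells, 31 in macrophages, 22 in T/NK cells, 25 in endothelial cells and 21 in fibroblasts, 0 passed. No gene of any kind passed edgeR in these gates (0% of 16415, 13031, 7623, 8341 and 6449 genes). DESeq2 called 0 genes in tumor and endothelial cells, 1 in macrophages, 5 in T/NK cells and 1 in fibroblasts, none of them a member. At an unadjusted edgeR p under 0.05, 0, 0, 5, 1 and 2 members passed in the 5 gates in this order, where 1.21%, 4.47%, 5.18%, 3.48% and 4.05% of all genes did. The median log2 fold change of the members tested was -0.06, -0.04, -0.24, -0.05 and -0.04.

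In tumor cells Nfe2l2 had 66.6, 95.004, 86.8 and 108 CPM in the irradiated tumors and 87.0, 74.5 and 78.0 CPM in the controls. The groups overlapped, and the log2 fold change was 0.07 ± 0.15 with a 95% interval from -0.27 to 0.40. Keap1 had 36.5, 32.9, 36.4 and 35.8 CPM against 35.2, 31.5 and 31.1 CPM (0.04 ± 0.10). The macrophage marker list summed to 45.2 to 73.8 CPM in the tumor cells of irradiated tumors and 83.9 to 96.7 CPM in those of controls, without overlap, and its part in these contrasts was not tested. The members with the smallest p in tumor cells were Abcc4, Prdx1 and Prdx6, and no member had groups that did not overlap (2.13% of all genes did not). Abcc4 had 17.2, 15.8, 18.7 and 32.0 CPM in irradiated tumors and 16.2, 16.9 and 10.7 CPM in controls (0.43 ± 0.23). Prdx1 had 623, 368, 472 and 294 CPM against 469.5, 600.2 and 709.9 CPM (-0.52 ± 0.30). Prdx6 had 111, 88.6, 90.4 and 69.6 CPM against 88.1, 87.8 and 155 CPM, and the high value of control 3 set its sign (-0.39 ± 0.28, and 0.03 without control 3).

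In macrophages Nfe2l2 had 599.9, 626, 510.5 and 593 CPM in irradiated tumors and 610.3, 599.6 and 631 CPM in controls (-0.09 ± 0.10). The smallest p values belonged to Gstm1, Keap1 and Gsto1, and no member had groups without overlap (5.01% of all genes). Gstm1 had 8.65, 8.10, 9.16 and 6.92 CPM against 9.04, 9.62 and 11.1 CPM (-0.29 ± 0.14). Keap1 had 24.5, 36.5, 28.9 and 36.4 CPM against 28.9, 22.2 and 21.7 CPM (0.37 ± 0.17). Gsto1 had 36.8, 28.1, 30.5 and 25.7 CPM against 35.7, 35.6 and 35.2 CPM (-0.25 ± 0.12), with irradiated 1 at the control level.

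Within the smaller host gates a few members had groups that did not overlap. In T/NK cells these were Keap1 and Sod1, higher in irradiated tumors, and Abcc1, Prdx6 and Gsto1, lower, where 6.57% of all genes tested did not overlap. Abcc1 had 52.5, 37.9, 43.1 and 52.0 CPM against 74.5, 61.8 and 69.9 CPM (log2 fold change -0.62 ± 0.20, adjusted p = 0.88). Prdx6 had 269.8, 242, 231 and 217 CPM against 278, 285 and 353 CPM (-0.40 ± 0.14, adjusted p = 0.88). Nfe2l2 had 90.4, 107, 89.7 and 73.5 CPM against 125, 99.3 and 136 CPM, with irradiated 2 above control 2 (-0.48 ± 0.18, adjusted p = 0.88). The macrophage marker list, which includes no member, summed in T/NK cells to 96.9 to 328 CPM in irradiated tumors and 201 to 383 CPM in controls, and macrophages hold the highest Nfe2l2 level. Its part in the Nfe2l2 values of the T/NK gate was not tested.

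Keap1 had a positive estimate in each host gate. In fibroblasts it had 43.1, 32.1, 45.0 and 50.1 CPM in irradiated tumors and 18.9, 23.9 and 17.6 CPM in controls, without overlap (5.5% of all genes). The log2 fold change was 1.01 ± 0.30, with a 95% interval from 0.35 to 1.67, an unadjusted edgeR p of 0.0064 and an adjusted p of 0.87. In T/NK cells it had 27.7, 33.7, 29.9 and 39.6 CPM against 19.9, 22.5 and 20.2 CPM (0.61 ± 0.26, adjusted p = 0.92). In endothelial cells it had 50.7, 38.8, 34.1 and 37.3 CPM against 38.3, 16.02 and 17.1 CPM, with control 1 among the irradiated values (0.79 ± 0.35, adjusted p = 1.00). None of these passed the adjusted test. Over all tumors Keap1 had 109 UMIs in fibroblasts, 155 in T/NK cells and 130 in endothelial cells, and the gates of a tumor share a library. The macrophage list summed to 236 to 504 CPM in irradiated and 506 to 575 CPM in control fibroblasts, and to 92.0 to 145 CPM against 196 to 235 CPM in endothelial cells, and its part was not tested.

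Other members of these gates were less separated. In endothelial cells, where 4.22% of all genes did not overlap, Gclc had 65.9, 107, 59.6 and 74.6 CPM against 56.7, 52.1 and 59.3 CPM (0.38 ± 0.24), a narrow separation. Sod1 had 98.8, 155, 116 and 186 CPM against 115, 131 and 78.7 CPM (0.33 ± 0.25). Irradiated 2 contributed 16 endothelial cells, the fewest of any tumor. In fibroblasts Me1 had 46.3, 59.3, 35.0 and 50.1 CPM against 18.9, 22.4 and 38.6 CPM (0.77 ± 0.35), with control 3 above irradiated 3. Prdx1 had 378, 267, 260.0 and 169.6 CPM against 224, 501 and 567 CPM (-0.73 ± 0.37), and the groups overlapped.

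**Figure D5:**
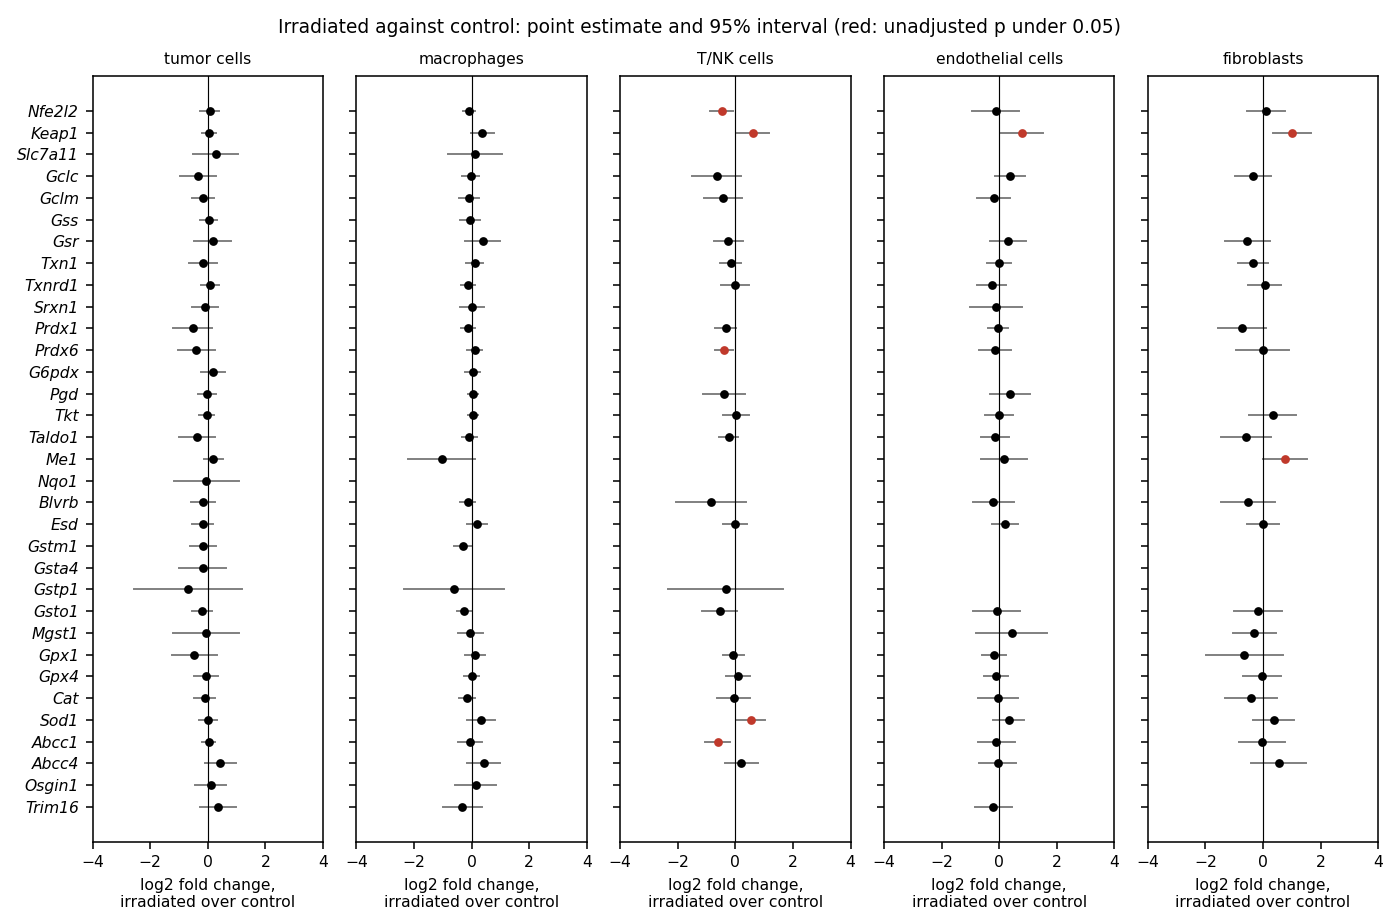
Log2 fold change of irradiated over control tumors with 95% interval for each member tested in the 5 gates (4 irradiated and 3 control tumors); red points have an unadjusted p under 0.05. No member passed the adjusted threshold, red points number 5 in T/NK cells, 1 in endothelial cells and 2 in fibroblasts, and Keap1 is red in all 3 of these gates.

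Irradiated and control tumors were compared within hypoxia-high cells and within cycling cells, and 0 of 32 members passed in either (0% of 13546 and 13221 genes by edgeR, with 0.709% and 2.42% at an unadjusted p under 0.05, and 0 genes by DESeq2). In cycling cells Gstm1 gave -0.46 ± 0.18 and Gsto1 -0.31 ± 0.13 on the log2 scale, both with an adjusted p of 0.98. Gsto1 was the member without overlap there (4.48% of all genes), and hypoxia-high cells had none (2.13%). The difference of the irradiation contrast between tumor cells and macrophages was tested directly and also gave 0 of 33 members, with Nfe2l2 at 0.19 ± 0.19, Keap1 at -0.28 ± 0.22 and Me1 at 1.31 ± 0.53 (adjusted p = 0.96). Without irradiated 1, where 374 genes passed, the Me1 difference was 1.97 ± 0.28 (adjusted p = 0.011). Macrophage Me1 levels behind it were 2.94, 0.491, 1.08 and 1.11 CPM in irradiated tumors and 3.47, 2.68 and 2.37 CPM in controls, with irradiated 1 among the controls. Gated tumor cells in the same libraries numbered 2678, 731, 1188 and 571 in irradiated tumors and 2502, 2285 and 2193 in controls. Mean Me1 was 2.02 CPM in macrophages and 72.9 CPM in tumor cells. The MPNST list in macrophages stood at 2.09% of its tumor cell level. The part of tumor transcripts in the Me1 difference was not tested.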

How the data were processed

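The authors deposited filtered 10x matrices of UMI counts (3′ v3.1 chemistry, Cell Ranger on mm10 per the labels), 1 per tumor. Counts were used as deposited. Cells outside 3 median absolute deviations for UMIs, genes, mitochondrial or ribosomal share within a library were removed, leaving 32108 of 39537. A gate required 3 MPNST, 6 macrophage, 4 T/NK, 6 endothelial or 7 fibroblast markers, too few markers for any other gate, fewer than 3 of dendritic, granulocyte, pericyte, keratinocyte, B or erythroid lists and, for host cells, at least 1 Xist UMI with fewer than 4 MPNST markers. MPNST cells had no Xist UMI, since the line is male and the hosts female. These numbers of markers were set after the marker counts of the cells were seen. Cell types are rebuilt here and may differ from those of the study. Scrublet called 408 cells (1.27%) as doublets, only 2 in irradiated 1 and 4 in irradiated 3. They were kept, and their removal was an alternative. Of 39347 distinct barcodes 190 occurred in more than 1 library.

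UMIs were summed per tumor and gate, with at least 10 cells. Sums held 13587226 to 77081068 UMIs in tumor cells, 11900711 to 17585791 in macrophages, 533940 to 1210960 in T/NK cells, 206412 to 876320 in endothelial cells and 359650 to 669036 in fibroblasts, where 3 UMIs equal up to 14.5 CPM in endothelial cells. Tests used edgeR 4.0.16 (R 4.3.3, limma 3.58.1; TMM, filterByExpr, robust quasi-likelihood, Benjamini-Hochberg over all genes, threshold 0.05), with the tumor as a block between gates and states. Alternatives were DESeq2 1.42.0, RLE scaling, no count filter, each tumor left out, a replicate block, the technical set, stricter gates and states, no cell filter, doublet removal, 20 cells and no tumor block. Removal of the 5% of cells with the highest doublet scores was chosen after seeing the data. The fits were tested on simulated data. Python 3.11.15, numpy 2.4.6, pandas 2.3.3, scipy 1.17.1, scanpy 1.11.5 and matplotlib 3.10.9 were used.

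Members and gene lists were chosen with earlier results of these data known. All 33 members are named. Levels by tumor are given for Nfe2l2, Keap1, the 2 members of each role with the greatest tumor to macrophage difference, and the 3 with the smallest irradiation p in each gate. Others were named for their role. Labels call the tumors biological replicates. RefSeq promoters are of GRCm38.p6, and the files carry no coordinates.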

Additional observations from a re-analysis of the deposited data

Results flagged for a closer look

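In groups of 4 irradiated tumors, 3 of 132 groups examined over members and gates held a value far from the other 3 by Dixon's criterion at the 95% level, and chance alone gives about 1 in 20 groups. Tkt in fibroblasts of irradiated 3 was at 27.5 CPM, with the others at 62.2 to 69.2 CPM. Taldo1 in fibroblasts of irradiated 1 was at 68.6 CPM, with the others at 27.2 to 29.998 CPM. Txn1 in T/NK cells of irradiated 4 was at 236 CPM, with the others at 204 to 205 CPM. Neither the depth of these small gates nor any other cause was tested.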

How the results depend on the processing

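Of 147 member calls between gates or states, 113 were kept in every alternative run and 34 were lost in at least 1. The counts of genes called between irradiated and control tumors moved from 0 under DESeq2 (macrophages 1, T/NK cells 5, fibroblasts 1, difference between tumor cells and macrophages 1), with no count filter (T/NK cells 82, endothelial cells 49, fibroblasts 6) and with the technical set as a term (T/NK cells 1). Leaving out each tumor gave 0 to 79 genes in macrophages (79 without irradiated 1), 0 to 3 in T/NK cells, 0 to 1 in cycling cells and 0 to 374 for the difference (374 without irradiated 1, with 0 to 1 members). Without a count filter 16130 genes were called between tumor cells and macrophages, where more genes entered the test. With stricter states 2258 genes (16.7%) and 7 members were called in hypoxia-high cells, and leaving out each tumor gave 3272 to 4644 genes and 11 to 16 members. RLE scaling moved the median log2 fold change of all genes between tumor cells and fibroblasts from 0.06 to -0.05, with 12 members higher and 8 lower. The causes of the other shifts were not tested.

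The replicate numbers of the labels did not pair the tumors: deviations of same-numbered tumors correlated at -0.51 to 0.11. A replicate block called 0 genes in each gate and state. For the difference between tumor cells and macrophages it could not be added to the tumor block. Stricter gates were not run for fibroblasts for lack of cells.

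Estimates of irradiated over control tumors that changed sign passed no test in either form. In tumor cells Nfe2l2 became -0.016 with the replicate block, -0.047 with the technical set and -0.012 with the stricter gate, and leaving out each tumor gave -0.0089 (without irradiated 4) to 0.167. Keap1 became -0.018 with the stricter gate and -0.0024 (without irradiated 1) to 0.072 with each tumor left out, and Prdx6 -0.587 to 0.026 (without control 3). In endothelial cells the stricter gate gave Gclc -0.375 and Nfe2l2 0.052, and each tumor left out gave Nfe2l2 -0.562 to 0.117 (without irradiated 3). In fibroblasts Nfe2l2 became -0.135 with the block, -0.169 with the technical set and -0.082 (without irradiated 4) to 0.259. In hypoxia-high cells Nfe2l2 ranged from -0.166 to 0.178 (without control 3), and in cycling cells from -0.096 to 0.057 (without irradiated 3). Keap1 in cycling cells became -0.00085 with DESeq2, -0.0085 without a filter, -0.0135 with the block and -0.032 (without control 2) to 0.031. Between tumor cells and macrophages Srxn1, called at -0.40, became 0.0089 with no cell filter and lost its call, as it did with RLE scaling, stricter gates and doublet removal.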

Other observations

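Gstp3, a pi-class paralog chosen after its values were seen, was concentrated in T/NK cells, with 40.8, 87.1, 81.4 and 68.5 CPM in irradiated tumors 1 to 4 and 99.3, 35.6 and 49.7 CPM in controls 1 to 3. In tumor cells it had at most 0.11 CPM. Within the T/NK gate control 1 was highest and control 2 lowest for Gstp3, as for Gstp1, but the order between these ends differed. After control 1 came irradiated 2 for Gstp3 and irradiated 3 for Gstp1. Control 1 and control 2 were also the libraries with the most and the fewest median UMIs per cell, and the part of depth was not tested.

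In cycling tumor cells, 24 of 53 tested genes of the wider pathway list were higher and 13 lower, where 35.4% of all genes were higher and 35.4% lower. Ggct, an enzyme of glutathione breakdown, rose by 1.35 and Glrx5, a mitochondrial glutaredoxin, by 1.34 on the log2 scale, and Hmox1 fell by 1.39. In hypoxia-high cells 21 of 55 were higher and 2 lower, where 17.7% and 13.6% of all genes were, with Maff, a small MAF partner of NRF2, at 0.66.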
